A study of Mus musculus with 3 samples.

Results

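Acute phase proteins are plasma proteins whose amount changes in infection and injury, and 7 of their genes are described here across the white cells of mouse blood: Orm1, Saa3, Hp, Lbp, Lrg1, C3 and Chil1. The 7 were taken by their symbols, not by a measured value, from the 31053 genes counted in each library, and each symbol matched 1 gene. Levels were read within neutrophils, B cells, T cells, NK cells and monocytes, which were told apart by marker transcripts that include none of the 7.

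The blood came from C57BL/6J mice, and its cells were sequenced one by one in droplets as 3 libraries, each of 1 group and each labelled 12 h. The first group was labelled Sham, read here as sham surgery. The second, CLP, was treated with CMC and underwent CLP, read here as carboxymethylcellulose and as caecal ligation and puncture, which opens the gut into the abdomen and is used to model sepsis. The third, HDCA+CLP, was treated with HDCA, read here as the bile acid hyodeoxycholic acid, and underwent CLP. The labels leave all 3 abbreviations unexpanded. They name no allele, age or sex, they do not give the order of treatment and surgery, and they give no number of animals behind a library. The Sham label names no CMC, so the CLP surgery and CMC cannot be told apart in CLP against Sham. The HDCA+CLP label names none either. By the labels, HDCA and the lack of CMC thus cannot be told apart in HDCA+CLP against CLP.

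With 1 library a group no test between groups was possible, and no difference below has a replicate check. The 95% intervals given are exact intervals that cover counting error only. Levels are UMIs (unique molecular identifiers, 1 per captured transcript) summed over the cells of a lineage and library and scaled to 1000000, written CPM. The chemistry tags the 3′ end of each transcript once, so a level does not grow with transcript length.

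The labels call the cells peripheral blood mononuclear cells, yet neutrophils, which are not mononuclear, were 3.56%, 46.4% and 77.2% of the cells in Sham, CLP and HDCA+CLP. There were 231, 4570 and 8380 neutrophils and 257, 675 and 270 monocytes in the same order, and the lineages' summed markers followed the gates. Neutrophils held 15324 to 21746 CPM of 5 neutrophil markers outside the gate, against 104 to 178 CPM in monocytes, and monocytes held 10825 to 28509 CPM of 6 monocyte markers, against 1423 to 4390 CPM in neutrophils. After removal of called doublets, 6496, 9853 and 10849 cells remained, with medians of 5245, 6552 and 7283 UMIs. At most 34 cell barcodes were shared by 2 libraries.

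The liver is the main source of acute phase proteins, and interleukin-6, interleukin-1 and tumour necrosis factor switch their genes on there through the transcription factors STAT3, C/EBP and NF-kappaB. Several of the genes are also read in myeloid cells, and neutrophils store some of the products in granules. Hp, haptoglobin, binds free haemoglobin, and Orm1, alpha-1-acid glycoprotein, is a carrier of lipids and drugs. Saa3 is the serum amyloid A apolipoprotein that mice make mainly outside the liver. Lbp hands bacterial lipopolysaccharide to CD14, C3 is the central protein of complement, Lrg1 is a secreted leucine-rich glycoprotein, and Chil1 is a chitinase-like lectin without enzyme activity.

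Hepatocyte transcripts were scarce in the myeloid cells. Of 10 hepatocyte genes, Alb, Ttr, Rbp4, Serpina1c, Ahsg and Apoh were at 0 in neutrophils of all 3 libraries, and these 6 and Apoa1 were at 0 in monocytes. The summed level of the 10 was 21.5 to 30.8 CPM in neutrophils. In monocytes it was 151 CPM in Sham and 14.7 and 11.0 CPM in CLP and HDCA+CLP.

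The stretches just before the start sites are shown for 3 genes whose levels went different ways below: Saa3, high in CLP monocytes, C3, at similar levels in monocytes of the 3 libraries, and Chil1, almost confined to neutrophils. They are the 250 bases before the annotated start, on the coding strand, from RefSeq's table for GRCm38.p6, an older build than the mm39 of the submitters' processing notes. The Saa3 window is chr7:46715677-46715926 on the minus strand, the C3 window chr17:57228137-57228386 on the minus strand and the Chil1 window chr1:134181906-134182155 on the plus strand. Capitals mark matches to the motifs searched.
Saa3: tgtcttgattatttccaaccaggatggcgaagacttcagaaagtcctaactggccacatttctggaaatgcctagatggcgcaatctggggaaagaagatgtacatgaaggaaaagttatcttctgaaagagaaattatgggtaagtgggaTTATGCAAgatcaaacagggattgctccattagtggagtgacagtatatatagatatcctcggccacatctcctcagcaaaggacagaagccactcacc
C3: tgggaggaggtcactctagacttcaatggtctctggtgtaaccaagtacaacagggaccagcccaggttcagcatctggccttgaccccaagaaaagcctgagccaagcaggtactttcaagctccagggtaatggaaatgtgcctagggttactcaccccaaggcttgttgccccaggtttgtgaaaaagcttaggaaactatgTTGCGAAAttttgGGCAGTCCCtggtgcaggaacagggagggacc
Chil1: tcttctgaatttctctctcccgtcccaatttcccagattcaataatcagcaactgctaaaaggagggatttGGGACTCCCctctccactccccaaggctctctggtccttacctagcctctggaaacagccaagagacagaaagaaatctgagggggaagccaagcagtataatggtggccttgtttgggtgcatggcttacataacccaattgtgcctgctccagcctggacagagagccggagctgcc

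Both strands were searched for TTGCNNAA (C/EBP), TTCNNNGAA (STAT3), GGGANNNCC (NF-kappaB) and TATAAA, none of which overlapped another in these windows. The capitals of Saa3 are a C/EBP match on the other strand that begins 99 bases before the start. C3 had a C/EBP match 45 bases before the start and an NF-kappaB match on the other strand 32 bases before it. Chil1 had an NF-kappaB match that reads on both strands, 179 bases before the start. The Lrg1 window, the fourth at hand, had none of the 4 motifs, and no window had the STAT3 or TATAAA letters. Of all 32851 promoter windows of this length, 9.56% held the C/EBP letters, 7.02% the STAT3 letters, 15.8% the NF-kappaB letters and 12.4% TATAAA, so single matches are common. Orm1, Hp and Lbp had no window in the table.

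Orm1 was low in Sham neutrophils and high in those of both CLP libraries. Its level was 20.8 CPM in Sham (25 UMIs, interval 13.5 to 30.7), 1007 CPM in CLP (39965 UMIs) and 811 CPM in HDCA+CLP (55648 UMIs). The Sham interval lay far below both others. CLP was 48.4-fold above Sham (log2 ratio 5.60, interval 5.03 to 6.22, and 4.23 with 3 neutrophil ranges, defined below, weighted equally), and HDCA+CLP was 38.9-fold above Sham, a comparison that shares the Sham library. HDCA+CLP was below CLP by a log2 ratio of -0.31 (-0.33 to -0.29). That direction turned to 0.24 when every neutrophil with a monocyte marker UMI was left out, an alternative chosen after seeing the data. It kept 1140 CLP and 1843 HDCA+CLP neutrophils. Its markers were Csf1r, Ms4a6c, F13a1, Lyz2, Fn1 and Vcan, of which Lyz2 was also read in neutrophils. Orm1 was read in most neutrophils of both CLP libraries. Of Sham, CLP and HDCA+CLP neutrophils, 3.46%, 85.2% and 81.1% had an Orm1 UMI, at median depths of 4260, 8496 and 7966.5 UMIs. With each cell thinned to 2000 UMIs, which left out 6, 77 and 119 shallower neutrophils, the shares were 0.889%, 63.6% and 56.5%. B cells, which should lack the gene, had 0%, 1.84% and 2.04% on the same thinned scale, with medians of 4245.5, 3307 and 2743 UMIs before thinning. Orm1 reads may partly be Orm2 reads, since 65 of 410 windows of 91 bases in the last 500 bases of Orm1 were also in Orm2. Orm2 itself had 0, 4 and 9 neutrophil UMIs and Orm3 had 0, 0 and 2.

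Hp was high in neutrophils of every library. Its level was 2308 CPM in Sham, 3300 CPM in CLP and 3532 CPM in HDCA+CLP, and the 3 intervals did not overlap. CLP was above Sham by a log2 ratio of 0.52 (0.46 to 0.57) and HDCA+CLP above CLP by 0.10. An Hp UMI was found in 99.1%, 99.6% and 99.9% of neutrophils, with medians of 10, 26 and 26 UMIs per cell. Haptoglobin transcripts were thus common in blood neutrophils of Sham and of both CLP libraries, and the ratios were small beside those of Orm1.

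Lrg1 had a similar pattern. The level was 1566 CPM in Sham, 2108 CPM in CLP and 2549 CPM in HDCA+CLP neutrophils, with intervals that did not overlap, and log2 ratios of 0.43 (0.36 to 0.50) for CLP against Sham and 0.27 (0.26 to 0.29) for HDCA+CLP against CLP. The first of these became -0.027 when neutrophils with a monocyte marker UMI were left out, which kept 29 of 231 Sham neutrophils. Neutrophils held 85.3%, 98.8% and 99.6% of all Lrg1 UMIs of Sham, CLP and HDCA+CLP.

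Lbp, scarce in all blood cells, was at 15.0 CPM in Sham neutrophils (18 UMIs, interval 8.89 to 23.7), 41.1 CPM in CLP and 49.5 CPM in HDCA+CLP. CLP was 2.74-fold above Sham (log2 ratio 1.45, interval 0.79 to 2.21) and the log2 ratio of HDCA+CLP against CLP was 0.27 (0.18 to 0.35). The ratio to Sham was 0.58 when the 3 ranges were weighted equally. After thinning, 2.22%, 7.66% and 8.87% of neutrophils had an Lbp UMI, against 0%, 0.368% and 0% of B cells.

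C3 was at 114 CPM in Sham neutrophils (137 UMIs, interval 95.8 to 135), 218 CPM in CLP and 230 CPM in HDCA+CLP. Both CLP libraries lay above the Sham interval. CLP was above Sham by a log2 ratio of 0.93 (0.69 to 1.19), which was 0.24 with the 3 ranges weighted equally, and HDCA+CLP was above CLP by 0.08 (0.04 to 0.12).

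Chil1 differed little between CLP and Sham neutrophils and was higher in HDCA+CLP. It stood at 292 CPM in Sham (interval 262 to 324), 284 CPM in CLP and 417 CPM in HDCA+CLP. The Sham and CLP intervals overlapped (log2 ratio -0.04, interval -0.19 to 0.12, and -0.14 to 0.16 over its alternatives, size factors among them), and HDCA+CLP was 1.47-fold above CLP (log2 ratio 0.56, interval 0.52 to 0.59). Between 98.6% and 99.6% of Chil1 UMIs in a library were in neutrophils. On the thinned scale 36.4%, 38.7% and 50.6% of neutrophils had a Chil1 UMI, against 0.0382%, 0.735% and 2.04% of B cells.

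Saa3 summed to 34.2 CPM in Sham neutrophils (41 UMIs), 395 CPM in CLP and 929 CPM in HDCA+CLP. The log2 ratio of CLP to Sham was 3.53 (3.09 to 4.01) and that of HDCA+CLP to CLP 1.24 (1.21 to 1.26, 2.35-fold). Both rested on few cells. In Sham, 40 of the 41 UMIs lay in 2 cells that passed the gates of more than 1 lineage, and without such cells the levels were 0.943, 252 and 607 CPM and the CLP to Sham log2 ratio was 8.06. The HDCA+CLP to CLP ratio was 0.47 with called doublets kept and 0.33 with a wider neutrophil gate of 2% S100a8 and S100a9 in place of 5%. After thinning, the share of neutrophils with a Saa3 UMI was 0.889%, 15.4% and 11.6%, and that of B cells 0.153%, 29.8% and 11.0%. In CLP the thinned share was below those of B, T (18.3%) and NK cells (17.6%). Without thinning it was 43.9% in CLP neutrophils and 42.2%, 36.4% and 38.9% in B, T and NK cells. In HDCA+CLP the thinned share was near that of B cells and above those of T (6.91%) and NK cells (7.23%). The part of RNA from outside the cells in these shares was not tested.

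Read over all genes with at least 20 UMIs in the 2 libraries, 3 of the 7 (Orm1, Saa3 and Lbp) were over 2-fold higher in CLP than in Sham neutrophils, where 11.1% of genes were, and none was over 2-fold lower, where 21% were. With C3 added, 4 of the 7 were over 2-fold higher in HDCA+CLP than in Sham, against 9.3% of genes, and none was lower, against 21.9%. Between HDCA+CLP and CLP, Saa3 was over 2-fold higher, against 2.23% of genes, and none was over 2-fold lower, against 1.42%. At 1.2-fold, Saa3, Lbp, Lrg1 and Chil1 were higher, against 17.5% of genes, and Orm1 was lower, against 19.2%. The median log2 ratio of the 7 was 0.93 for CLP against Sham and 0.27 for HDCA+CLP against CLP, beside -0.15 and -0.03 over all genes.

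**Figure D1:**
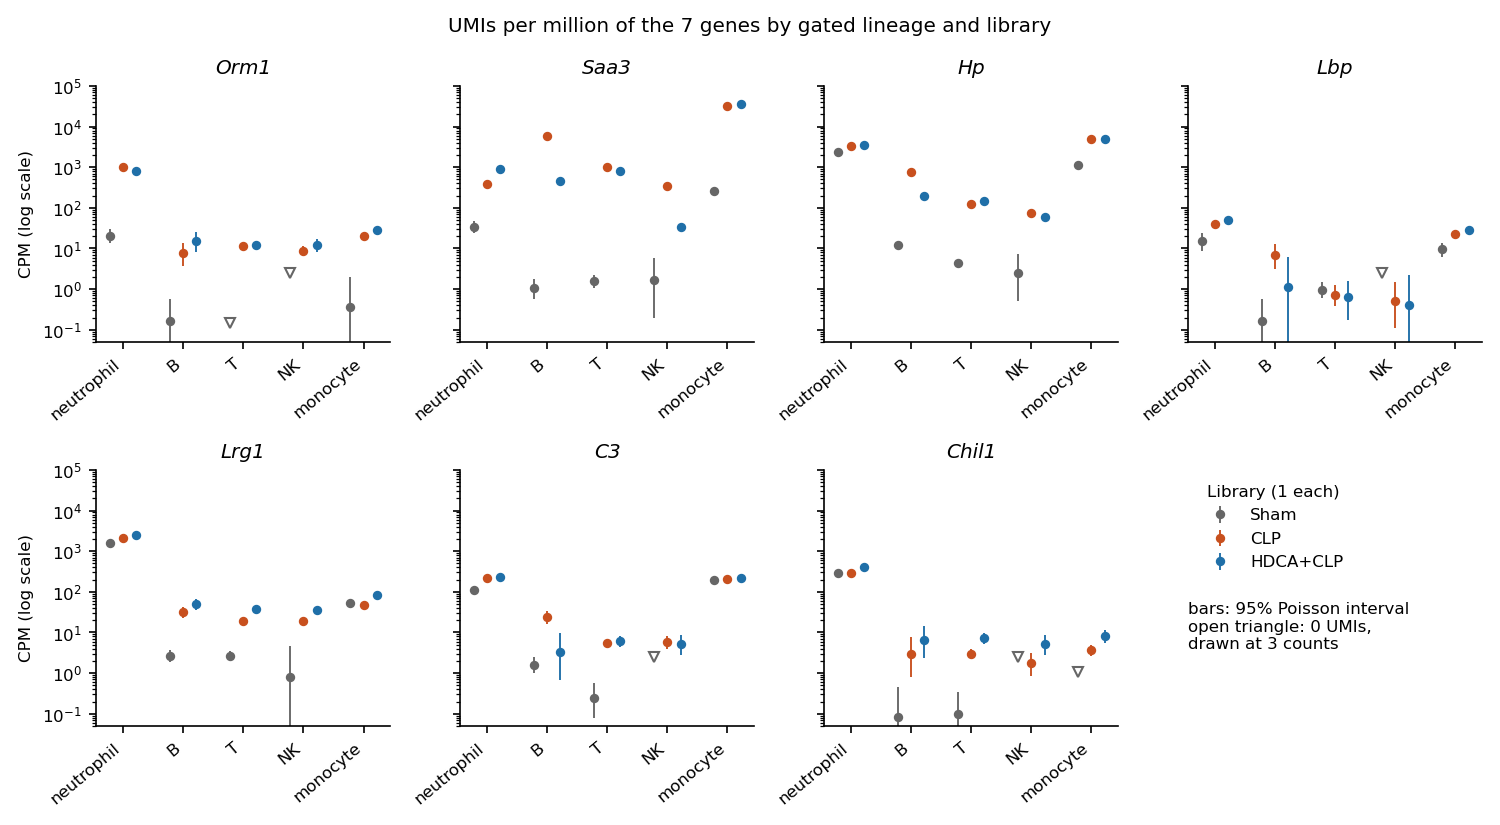
CPM (log axis) of each gene in the 5 gated lineages, 1 point per library with its 95% Poisson interval, and an open triangle at 3 counts where no UMI was found. Orm1, Lrg1 and Chil1 points are highest in neutrophils, Saa3 points highest in monocytes, and Hp and C3 points are high in both.

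Several measures of the neutrophils moved with the libraries. The Sham neutrophils were few and shallow, with 1200409 UMIs in all against 39681667 in CLP. Summed monocyte markers in neutrophils were 4390, 1423 and 1941 CPM in Sham, CLP and HDCA+CLP and summed erythroid markers 4.17, 144 and 273 CPM. Of 11 immediate early genes, which respond to handling as well as to stimulation, 9 had enough UMIs. Of these, 8 were over 2-fold lower in CLP than in Sham neutrophils, against 21% of genes, Fos at 155 against 1456 CPM. The part of these differences in the results was not tested.

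Neutrophils that leave the marrow early still carry transcripts of granule proteins, so the cells of the 3 libraries were cut together into 3 ranges of equal number by the share of Ngp, Camp and Ltf in their UMIs, at 2.54% and 5.10%. The ranges are parts of a continuous score, not cell types, and 4, 928 and 1538 cells lay close to a cut in Sham, CLP and HDCA+CLP. The low range held 93.5% of Sham, 29.6% of CLP and 33.7% of HDCA+CLP neutrophils, which left 4 Sham cells in the middle and 11 in the high range.

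Orm1 was near 1000 CPM in every range of CLP, with 1121, 865 and 1074 CPM in the low, middle and high range. In HDCA+CLP it was 1142, 637 and 755 CPM. The difference between these libraries thus sat in the middle and high ranges, with log2 ratios of -0.44 and -0.51, and the low range had 0.03 (-0.01 to 0.06). In Sham, Orm1 was 1.97 CPM in the low range (2 UMIs) and 161 CPM in the 11 cells of the high range. Within the low range CLP exceeded Sham by a log2 ratio of 9.15, with a counting interval of 7.30 to 12.2.

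Chil1 was highest in the low range of both CLP libraries. It was 499, 248 and 208 CPM over the low, middle and high range of CLP and 753, 346 and 276 CPM in HDCA+CLP, which was the higher library in each, by log2 ratios of 0.59, 0.48 and 0.40. Against Sham the ranges went opposite ways. In the low range CLP was above Sham by 0.82, and in the high range, with 11 Sham cells, the log2 ratio was -0.88. The overlap of Sham and CLP levels over all neutrophils thus held neither range's value.

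C3 behaved likewise, with 314, 194 and 190 CPM over the ranges of CLP, 328, 193 and 201 CPM over those of HDCA+CLP, and 85.6, 220 and 286 CPM over those of Sham. CLP against Sham was 1.88 in the low range and -0.59 in the high range on the log2 scale. Lrg1 ran the other way in the CLP libraries, from 1845 CPM in the low to 2223 CPM in the high range of CLP and from 2354 to 2634 CPM in HDCA+CLP, and CLP against Sham was 0.13 in the low and 1.33 in the high range. Lbp also stood higher in the high range, at 48.9 CPM in CLP and 59.6 CPM in HDCA+CLP against 27.9 and 35.3 CPM in the low range. In Sham it was 7.87 CPM in the low and 69.8 CPM in the high range, and CLP against Sham was 1.83 in the low range and -0.51 (-1.40 to 0.55) in the high range. Hp differed little between ranges, from 3147 to 3391 CPM in CLP and from 3272 to 4116 CPM in HDCA+CLP.

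**Figure D2:**
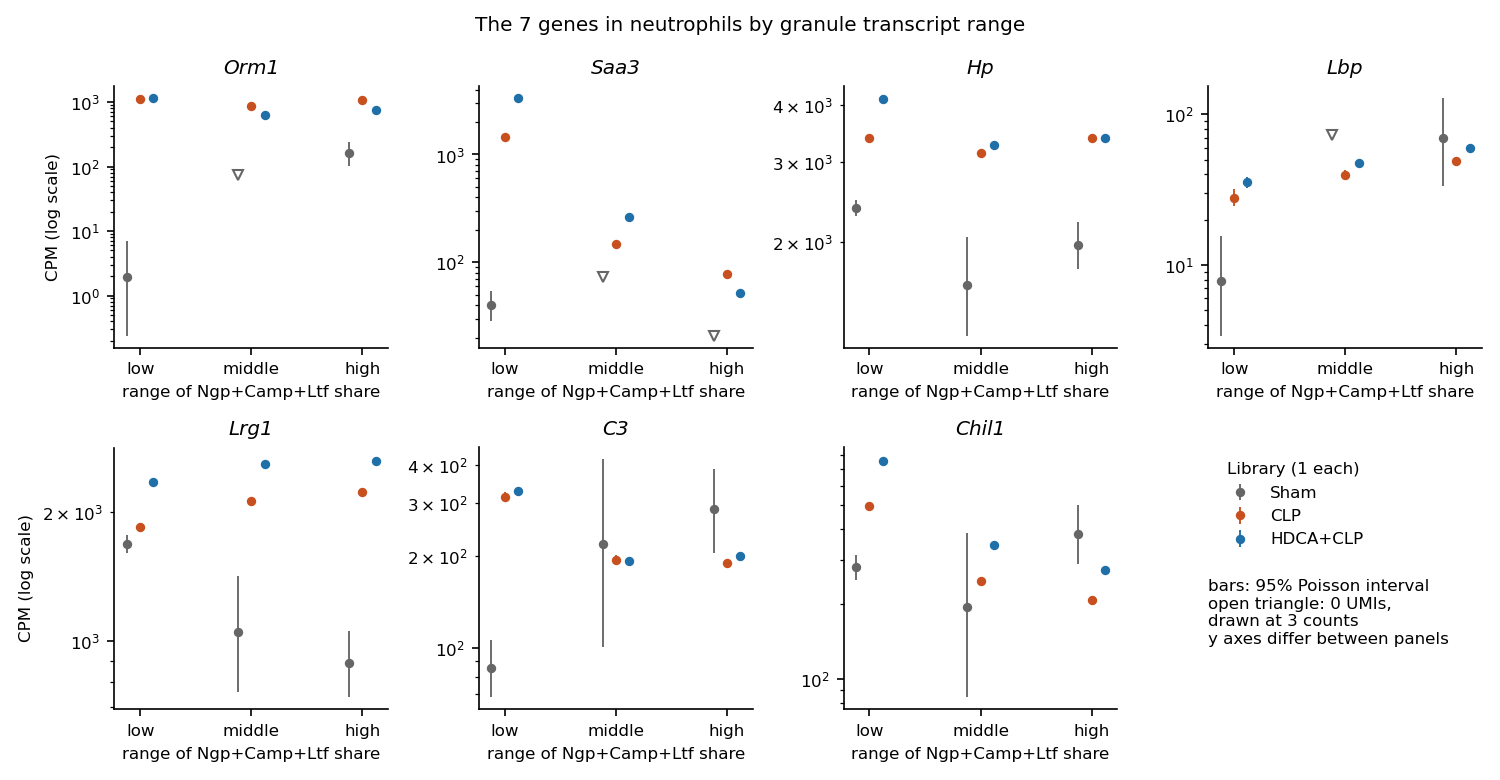
CPM (log axes that differ between panels) of each gene in neutrophils of the low, middle and high range of the Ngp, Camp and Ltf share, 1 point per library with its 95% Poisson interval, and an open triangle at 3 counts where no UMI was found. Saa3 falls steeply from low to high in both CLP libraries, from 3318 to 52.3 CPM in HDCA+CLP, and Sham intervals are wide in the middle and high ranges.

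Saa3 was 1463, 148 and 78.3 CPM over the ranges of CLP and 3318, 262 and 52.3 CPM over those of HDCA+CLP. HDCA+CLP was the higher library in the low and middle range (log2 ratios 1.18 and 0.83) and the lower in the high range (-0.58, interval -0.69 to -0.47). The cells behind the low range were few. Neutrophils with at least 100 Saa3 UMIs were 35 of 4570 in CLP and held 65.1% of the neutrophils' Saa3 UMIs, and 174 of 8380 in HDCA+CLP, where they held 80.5%. Of them 12 and 46 also passed the gate of another lineage. These cells carried more Lyz2 and Csf1r transcripts than neutrophils without a Saa3 UMI. Lyz2, lysozyme, was at 2705 against 416 CPM in CLP and 2568 against 463 CPM in HDCA+CLP. Csf1r, the receptor of the monocyte growth factor, was at 56.8 against 2.52 CPM and 88.1 against 5.02 CPM. Lyz2 is not confined to monocytes. Over the granule ranges of all neutrophils it was at 276 to 667 CPM in CLP and 377 to 684 CPM in HDCA+CLP. In Sham it was at 2462 to 9690 CPM, the highest in the 11 cells of the high range. Transcripts rich in neutrophils went both ways in the cells with at least 100 Saa3 UMIs. S100a8 and S100a9 made up a median of 23.6% and 22.4% of their UMIs against 38.2% and 36.9%. Retnlg was at 4189 against 13516 CPM in CLP and 7513 against 13297 CPM in HDCA+CLP, and Lrg1 at 916 against 2110 and 1424 against 2582 CPM. Higher were Orm1, at 1401 against 991 and 1481 against 737 CPM, and Chil1, at 548 against 275 and 757 against 385 CPM. Among neutrophils without any UMI of 6 monocyte genes, Saa3 was nevertheless 428 CPM in CLP and 1490 CPM in HDCA+CLP. Whether the cells are monocytes, doublets or neutrophils was not tested.

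**Figure D3:**
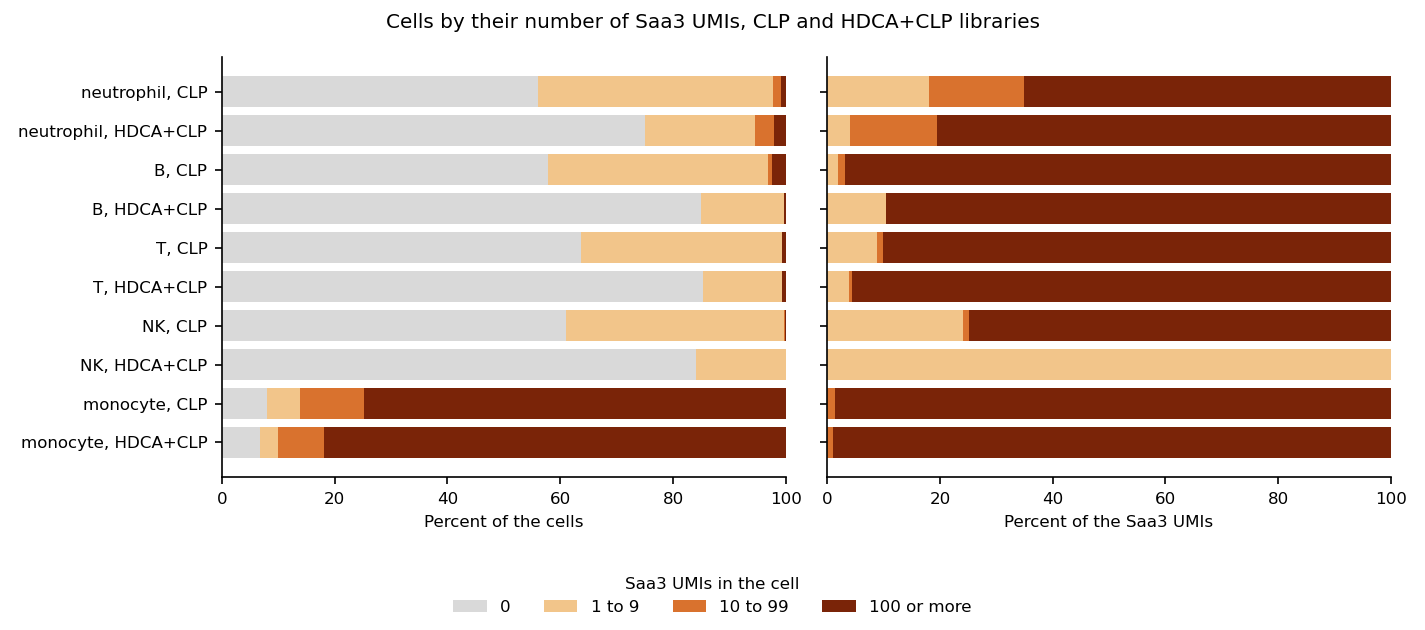
Share of cells (left) and of Saa3 UMIs (right) by the number of Saa3 UMIs in a cell, in percent, for each lineage of the CLP and HDCA+CLP libraries. Most monocytes hold 100 or more Saa3 UMIs, while in neutrophils 65.1% and 80.5% of the Saa3 UMIs lie in the few cells at 100 or more.

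In monocytes Saa3 was the member that differed most. It was 259 CPM in Sham (709 UMIs), 31967 CPM in CLP (322937 UMIs) and 36899 CPM in HDCA+CLP (138036 UMIs), with intervals far apart. CLP was 124-fold above Sham (log2 ratio 6.95, interval 6.84 to 7.06), and Saa3 alone made up 3.20% and 3.69% of all monocyte UMIs in CLP and HDCA+CLP. HDCA+CLP exceeded CLP 1.15-fold (log2 ratio 0.21, interval 0.20 to 0.22). Median Saa3 UMIs per monocyte were 0, 334 and 394 in Sham, CLP and HDCA+CLP, and 1 of 257, 505 of 675 and 221 of 270 monocytes held at least 100. After thinning, 8.56%, 87.8% and 92.9% of monocytes had a Saa3 UMI. Those shares lay above the B cell shares in every library. Monocytes held 88.4% of the CLP library's Saa3 UMIs and 66.4% of the HDCA+CLP library's, and neutrophils 4.29% and 30.7%.

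Hp, also abundant in monocytes, stood at 1156 CPM in Sham, 4903 CPM in CLP and 4897 CPM in HDCA+CLP. CLP was 4.24-fold above Sham (log2 ratio 2.08), and the intervals of CLP and HDCA+CLP overlapped (log2 ratio -0.00). Monocytes of the CLP libraries thus had more Hp per UMI than neutrophils, and those of Sham had less.

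Of the remaining genes, C3 was at 196, 206 and 225 CPM in Sham, CLP and HDCA+CLP monocytes. The Sham and CLP intervals overlapped (log2 ratio 0.07, interval -0.07 to 0.21). Lbp was at 9.48, 22.8 and 28.9 CPM, with a log2 ratio of CLP to Sham of 1.26 (0.68 to 1.91). Lrg1 was at 53.3, 46.5 and 81.8 CPM. Its interval for CLP against Sham included no difference (log2 ratio -0.19, interval -0.47 to 0.08), and HDCA+CLP was 1.76-fold above CLP (log2 ratio 0.81, interval 0.60 to 1.02).

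Orm1 and Chil1 were scarce in monocytes. Orm1 had 1 UMI in Sham monocytes, 19.9 CPM in CLP and 28.6 CPM in HDCA+CLP, a log2 ratio of CLP to Sham of 5.77 with an interval of 3.27 to 11.1. With cells past more than 1 gate left out, the levels in CLP and HDCA+CLP were 1.96% and 3.48% of the neutrophil levels of the same libraries. Chil1 had 0 UMIs in Sham monocytes, 3.66 CPM in CLP, at least 3.35-fold higher when Sham is set at 3 counts, and 8.29 CPM in HDCA+CLP. Without the same cells these were 1.29% and 1.96% of the neutrophil levels. For 10 neutrophil genes, such as Ltf and Cd177, the same percentage had a median of 0.42 in CLP (0.29 to 18.4) and 1.26 in HDCA+CLP (0.47 to 20.7), so both genes lay above the median and within the spread. The part of neutrophil RNA from outside the cells in these levels was not tested. The Orm1 ratio of HDCA+CLP to CLP in monocytes, 0.52 on the log2 scale, became -0.18 with a neutrophil gate of 2%. The gate moves cells rich in neutrophil transcripts out of the monocytes.

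In monocytes 5 of the 7 genes (Orm1, Saa3, Hp, Lbp and Chil1) were over 2-fold higher in CLP than in Sham, where 10.7% of genes were, and none was lower, where 17% were. The same 5 were higher in HDCA+CLP than in Sham, against 9.79% of genes, with none lower, against 14.9%. Between HDCA+CLP and CLP only Chil1 was over 2-fold higher, against 2.22%, and none was lower, against 2.32%. The Chil1 ratio rested on 31 UMIs in HDCA+CLP, 12 of them in 1 cell, and 37 in CLP, 11 of them in 1 cell. At 1.2-fold, Orm1, Lbp, Lrg1 and Chil1 were higher, against 24.7% of genes, and none was lower, against 15.6%. The members' median log2 ratio was 1.74 for CLP against Sham and 0.34 for HDCA+CLP against CLP, beside -0.20 and 0.05 over all genes.

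**Figure D4:**
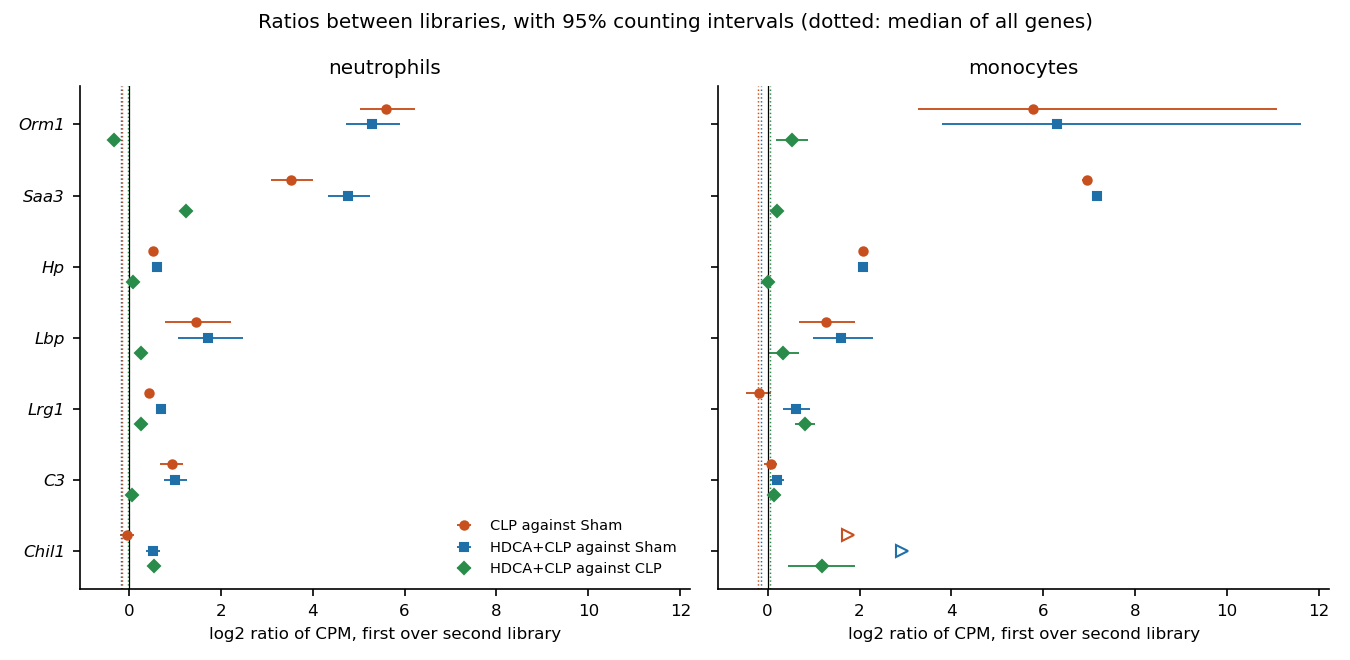
Log2 ratio of CPM between libraries for each gene in neutrophils (left) and monocytes (right), with 95% counting intervals, dotted lines at the medians of all genes, and open triangles for lower limits against 3 counts. In neutrophils Orm1 is at 5.60 and Saa3 at 3.53 for CLP against Sham, in monocytes Saa3 is at 6.95, and the ratios of HDCA+CLP to CLP lie close to 0 for most genes.

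The make-up of the monocytes also differed. Classical monocytes, the Ly6c2-rich kind, were 59.5%, 90.8% and 93.7% of Sham, CLP and HDCA+CLP monocytes, by their UMIs of 5 classical and 6 non-classical marker genes. Saa3 in classical monocytes alone was 354, 32706 and 37295 CPM, with a CLP to Sham log2 ratio of 6.53 (6.42 to 6.64), a little below that over all monocytes. Non-classical monocytes had 0 Saa3 UMIs in 104 Sham cells, 14475 CPM in 57 CLP cells and 18723 CPM in 15 HDCA+CLP cells, and 59.6% and 40% of those cells had a Saa3 UMI. Hp in classical monocytes was 1342, 4866 and 4956 CPM, a log2 ratio of CLP to Sham of 1.86. In non-classical monocytes it was 650, 5903 and 2332 CPM, the last from 15 cells.

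Within classical monocytes C3 and Lrg1 were lower in CLP than in Sham when scaled by totals. C3 was 243, 207 and 226 CPM, with a log2 ratio of CLP to Sham of -0.23 (-0.38 to -0.09) by totals, where size factors moved ratios over all monocytes by 0.17, while in non-classical monocytes it was 66.5, 165 and 172 CPM. By totals, C3 in CLP was thus below Sham in the larger subset and above it in the smaller. The ratio in the larger subset was close to the median of all genes over all monocytes, -0.20. Classical monocytes, which held more C3 in each library, were also a larger share of monocytes in CLP. The part of each in the similar levels over all monocytes was not tested. Lrg1 was 69.8, 47.6 and 83.4 CPM in classical monocytes, with a log2 ratio of CLP to Sham of -0.55 (-0.83 to -0.27).

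Lymphocytes held little of the 7 genes once cells past more than 1 gate were left out. In B, T and NK cells of CLP and HDCA+CLP, Orm1, Hp, Lrg1, C3 and Chil1 were then at 0.62% to 2.25% of the neutrophil level of the same library, where the median over the 10 neutrophil genes was 0.73% to 1.33%. Saa3 was at 143, 91.9 and 86.6 CPM in B, T and NK cells of CLP and at 52.8, 33.3 and 33.4 CPM in HDCA+CLP. With all gated cells the Saa3 levels were 5913, 989 and 345 CPM in CLP and 471, 802 and 33.4 CPM in HDCA+CLP. In CLP the 1-gate levels were still 56.5%, 36.4% and 34.4% of the neutrophil level. Every lymphocyte with 100 or more Saa3 UMIs, 27 in CLP and 9 in HDCA+CLP, passed more than 1 gate. The larger part of the Saa3 level in B, T and NK cells of CLP thus lay in cells with transcripts of another lineage, and in HDCA+CLP the NK level was 33.4 CPM with and without them.

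Most of the other acute phase genes were at or near 0 in blood, with Lcn2 the main exception. Of 27 fixed by name, 16 had 0 UMIs in both Sham and CLP neutrophils and 16 in both Sham and CLP monocytes. In neutrophils 5 had at least 20 UMIs, 2 of them over 2-fold higher in CLP than in Sham and 1 lower, against 11.1% and 21% of genes. Of the 5, 2 had 0 UMIs in Sham and were set against 3 counts, 1 of them among the 2 higher. The median log2 ratio of the 5, 0 beside -0.15 over all genes, came from that floor. Lcn2, an iron-siderophore binding protein, was at 7388 CPM in Sham and 21506 CPM in CLP, and Steap4, a metalloreductase, at 127 and 4.33 CPM. In monocytes 7 of 8 were over 2-fold higher in CLP, against 10.7% of genes, with a median of 4.18 beside -0.20. Lcn2 was at 264, 6054 and 7554 CPM in Sham, CLP and HDCA+CLP monocytes, Saa1, the liver's serum amyloid A, at 0, 20.8 and 12.3 CPM, and Cp, the copper carrier ceruloplasmin, at 0, 19.0 and 19.5 CPM. Between HDCA+CLP and CLP monocytes none of the 8 was past 2-fold, against 2.22% of genes higher and 2.32% lower. In neutrophils 4 of 10 were higher, against 2.23% of genes, and 2 lower, against 1.42%. Among them were Steap4 at 12.3 against 4.33 CPM and Saa1 at 2.13 against 5.47 CPM. Some rested on few UMIs, such as Cp, with 19 in HDCA+CLP and 4 in CLP.

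The listed cytokines, inducers of acute phase genes together with Csf3, differed by lineage. In monocytes 5 of the 6 with enough UMIs were over 2-fold higher in CLP than in Sham, where 10.7% of genes were, with a median of 2.31 beside -0.20 over all genes. Csf3, the granulocyte growth factor, was at 0 CPM in Sham and 53.8 CPM in CLP, Il6 at 0 and 8.81 CPM, and Tnf at 8.39 and 47.8 CPM. In neutrophils, where 11.1% of genes were higher and 21% lower, 1 of 4 was higher, Tnf at 7.50 and 58.6 CPM, and 2 were lower, Il1b at 2693 and 158 CPM and Osm, oncostatin M, at 358 and 76.8 CPM. Il1b was higher in HDCA+CLP than in CLP in both lineages, at 317 against 158 CPM in neutrophils and 477 against 307 CPM in monocytes.

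Receptors and signalling genes of these cytokines were mostly lower or similar. In neutrophils 7 of 15 were over 2-fold lower in CLP than in Sham, where 21% of genes were, and none higher, where 11.1% were. The lower genes included Socs3, the feedback inhibitor of STAT3 signalling, at 78.2 against 336 CPM, Cebpd, a C/EBP factor, at 132 against 602 CPM, and Il6ra at 80.4 against 234 CPM. In monocytes 2 of 17 were higher and 2 lower, against 10.7% and 17% of genes, and Socs3 was among the higher, at 477 against 79.5 CPM. None was past 2-fold between HDCA+CLP and CLP in either lineage, where 1.42% to 2.32% of genes were in each direction.

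Binding partners of the 7 proteins were 23 by name. In CLP monocytes 7 of 17 were over 2-fold above Sham, against 10.7% of genes, and 4 below, a share close to the 17% of all genes. Fpr2, a receptor of serum amyloid A, was at 63.1 CPM in Sham, 555 CPM in CLP and 477 CPM in HDCA+CLP, and C3ar1, the receptor of the C3a fragment, at 0.729 (2 UMIs), 63.9 and 26.2 CPM. Cd163, the receptor of haptoglobin bound to haemoglobin, had 1 UMI in Sham and was at 20.4 and 6.68 CPM. Of 17 partners, C3ar1 and Cd163 were the 2 over 2-fold lower in HDCA+CLP than in CLP monocytes, against 2.32% of genes. None was over 2-fold higher, against 2.22%. In neutrophils 5 of 16 were over 2-fold lower in CLP than in Sham and none higher, against 21% and 11.1% of genes. Cd14, to which Lbp delivers lipopolysaccharide, was at 257, 495 and 597 CPM in Sham, CLP and HDCA+CLP neutrophils, less than 2-fold apart between Sham and CLP.

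The genes most alike in level over the 15 lineage and library groups were found by Pearson's r of log2(CPM + 10) among 10037 genes. The groups share libraries and depth, so r describes and tests nothing. Chil1 was nearest to Ly6g, Asprv1 and Snai1 (r = 0.99 for each), Lrg1 to Mapk13, Slfn4 and Cd177 (0.98, 0.98 and 0.97), and Hp to Ifitm2, Ifitm3 and Fpr2 (0.99, 0.98 and 0.97). C3 was nearest to Csf2ra, Pik3r6 and Thbs1 (0.99 each), Lbp to Scamp1, Rhou and Alas1 (0.98, 0.98 and 0.97), and Orm1 to Prnp, Prss16 and Lipg (0.98, 0.97 and 0.96). Saa3 had the least close neighbours, Mt1, Dhx58 and Tdg (0.92, 0.92 and 0.91). Among the 7 themselves, Lrg1 and Chil1 were the most alike pair (0.96) and Saa3 and Chil1 the least (0.03).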

How the data were processed

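The authors deposited raw counts of UMIs, by gene and barcode, for 3 libraries, made with Chromium 3′ v3 chemistry from blood digested with hyaluronidase and DNase I, per the labels' protocols. The submitters' processing notes name Cell Ranger 5.0.1, Seurat 4.0.6, R 4.0.3 and mm39. No cell types by the authors were used here. The libraries held 7159, 11387 and 12205 barcodes and 42427093, 87031721 and 95178381 UMIs (Sham, CLP, HDCA+CLP).

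Cells with at least 500 UMIs, 200 genes and at most 10% mitochondrial UMIs were kept. Doublets were scored by likeness to simulated ones (2 for each cell), and the top 0.8% per 1000 barcodes was left out (395, 987 and 1174 cells). Of these, 56.7%, 39.7% and 29.5% passed more than 1 lineage gate, against 1.31%, 3.61% and 1.81% of cells kept. The gates, in order, were S100a8 and S100a9 at 5% of UMIs or more (neutrophil), Cd79a, Cd79b and Ms4a1 at 3 UMIs (B), Cd3d, Cd3e, Cd3g and Trac at 2 (T), Ncr1, Klrb1c and Klra8 at 2 (NK), and Csf1r, Ms4a6c and F13a1 at 3 (monocyte). The remaining 61, 309 and 117 cells were ungated.

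UMIs were summed per lineage and library. Intervals are exact Poisson (CPM), conditional binomial (ratios) and Clopper-Pearson (shares). A gene at 0 was set against a floor of 3 counts per library. A comparison counted genes with at least 20 UMIs. The ratio code was tested on simulated data. The genes, lists and tests were chosen with earlier results of these data known. From each list, up to 3 genes in each direction with the largest ratio, by the interval bound nearest to 0, could be named among those with 50 UMIs, and Orm2, Orm3, Fos, and values of a named gene in another lineage or comparison, were given after their values were seen. The values of 1 list gene are not reported here. Alternatives are in the closing section. Python 3.11.15, NumPy 2.4.6, SciPy 1.17.1, pandas 2.3.3, scikit-learn 1.9.0 and matplotlib 3.10.9 were used.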

Additional observations from a re-analysis of the deposited data

Results flagged for a closer look

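Orm1 differed between HDCA+CLP and CLP in opposite directions in 2 lineages, with a log2 ratio of -0.31 in neutrophils and 0.52 in monocytes. The difference between the lineages was not tested. With cells past more than 1 gate left out, monocyte Orm1 was at 1.96% of the neutrophil level in CLP and 3.48% in HDCA+CLP.

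Cells that passed no gate, which the comparisons do not use, also held 3 of the genes above the level in Sham. Orm1 was at 50.3 CPM in CLP and 174 CPM in HDCA+CLP, and Saa3 at 601 and 1335 CPM, with 0 UMIs of either in Sham. Chil1 was at 99.3 CPM in HDCA+CLP and at 14.5 CPM in Sham, from 2 UMIs. There were 61, 309 and 117 such cells in Sham, CLP and HDCA+CLP.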

How the results depend on the processing

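The limits lie in the design: 1 library a group, unknown numbers of animals and intervals for counting error only. No paired analysis was possible because each group has 1 library, and for the same reason no library could be left out. Counting sign changes of ratios whose interval excluded 0, there were 2 among 183 alternative values in neutrophils and 1 among 133 in monocytes. In B, T and NK cells there were 4 among 100, 2 among 144 and 3 among 96. Ratios near 0 crossed it more often, such as Chil1 for CLP against Sham in neutrophils (-0.14 to 0.16) and Lrg1 in monocytes (-0.39 to 0.05). Leaving out cells with a monocyte marker UMI, added after seeing the data, turned Lrg1 for CLP against Sham in neutrophils to -0.027. That value rested on 29 of 231 Sham neutrophils. The same setting turned Orm1 for HDCA+CLP against CLP in neutrophils to 0.24, which left 0 genes over 1.2-fold lower. For HDCA+CLP against CLP in B cells, it turned Hp from -1.92 to 0.10 and C3 from -2.88 to 1.02. Leaving out cells past more than 1 gate gave 0.12 and 0.25. In the same comparison Hp in T cells, at 0.24, became -1.16 with called doublets kept and -0.030 with a mitochondrial limit of 5%. Hp in NK cells, at -0.35, became 0.62 without cells past more than 1 gate. It became 0.28 without cells with a monocyte marker UMI and 0.10 as a mean over cells. A neutrophil gate of 2% turned Orm1 in monocytes to -0.18. For HDCA+CLP against CLP the number of genes over 2-fold higher in neutrophils became 0 with doublets kept and 0 with the 2% gate. In monocytes it became 2 with a gate of 10%, 0 with 2% and 0 with at least 100 UMIs, and the number over 1.2-fold higher became 1 with the 2% gate. The other 129 of 136 alternative counts were within 1.5 times the reported count. Size factors in place of totals moved all CLP against Sham ratios by 0.17 in both lineages.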
